A study of Homo sapiens with 12 samples.

Results

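The lysosome and autophagy genes described here are 33 named genes of the 25049 in the count table, chosen by symbol from what is known of their function, by a rule that uses no measured value, though with earlier results of these data known. All 33 have a row and all 33 passed the filter on low counts, so every one entered the test. They were read in 12 samples of MDA-MB-231b, a bone-tropic derivative of the established human triple-negative breast cancer line MDA-MB-231, made by recovering the cells from the bone marrow of athymic nude mice. There were 3 samples in each of 4 groups, which the labels call WT in DMSO, WT in paclitaxel (PTX), GLI2_KO in DMSO and GLI2_KO in paclitaxel. Paclitaxel, a taxane that stabilises microtubules, was given at 50 nM for 2 days, and DMSO is its solvent. GLI2 is a transcription factor of Hedgehog signalling. The knockout used Cas9 delivered by lentivirus with a guide RNA (sgGLI2), and the design text names a non-targeted guide as the counterpart. The sources used here do not say whether the libraries labelled WT carry that guide, or whether the knockout is 1 clone or a pool, so the genotype contrast compares these cell populations. The library numbers in the titles run from 1 to 6 for WT and from 7 to 12 for GLI2 KO. Genotype therefore cannot be told apart from that order.

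Lysosomes are acidic organelles in which hydrolases such as cathepsins and glycosidases break down material delivered by endocytosis or autophagy. The vacuolar proton pump (V-ATPase) acidifies them, and glycoproteins such as LAMP1 and LAMP2 line their membrane. In macroautophagy, the ULK1 kinase complex and the BECN1 lipid kinase complex start a double membrane, WIPI proteins bind its lipid, the ATG5 and ATG7 conjugation systems attach Atg8 proteins such as MAP1LC3B and GABARAPL1, and receptors such as SQSTM1 (p62) carry cargo into it. The MiT transcription factors TFEB, TFE3 and MITF bind E-box elements in the promoters of many of these genes (the CLEAR network), and the kinase complex mTORC1 on the lysosome keeps TFEB and TFE3 in the cytoplasm in fed cells. That control acts on the proteins and is not measured by messenger RNA counts.

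The element that ties these factors to their targets can be read in the promoters, and the following sequences are shown because they carry it. RefSeq promoter windows on GRCh38.p14, from 250 bases before to 50 bases after a start site, were matched by symbol for 26 of the 33 genes. On either strand, the 6-letter core CACGTG lay in the windows of 6 of the 26 genes (23.1%), against 8.77% of all 27305 genes in the table. The longer form TCACGTGA, which contains that core, lay in 4 of 26 (15.4%), against 1.18% of all genes. LAMP1 held 6 cores, and MCOLN1, the lysosomal calcium channel, and CTSA held 2 each. For LAMP1 and MCOLN1 the 250 bases before the start site are printed 5′ to 3′ on the gene's strand, with the core in capitals; 5 of the 6 LAMP1 cores lie in this stretch.
LAMP1, chr13:113296989-113297238, plus strand: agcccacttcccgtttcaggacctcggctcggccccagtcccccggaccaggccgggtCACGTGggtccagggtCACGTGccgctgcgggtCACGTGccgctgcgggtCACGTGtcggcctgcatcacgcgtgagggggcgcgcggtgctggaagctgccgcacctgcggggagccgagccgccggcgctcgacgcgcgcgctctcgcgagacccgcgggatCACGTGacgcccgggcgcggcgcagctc
MCOLN1, chr19:7522374-7522623, plus strand: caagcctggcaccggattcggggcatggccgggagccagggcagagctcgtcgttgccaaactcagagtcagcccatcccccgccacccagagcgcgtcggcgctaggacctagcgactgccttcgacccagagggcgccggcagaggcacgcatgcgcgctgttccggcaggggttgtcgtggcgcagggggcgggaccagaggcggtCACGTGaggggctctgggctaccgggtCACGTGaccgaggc
In the other genes with the core, the 30 bases around each site were as follows, again with the core in capitals. The genes encode protective protein cathepsin A, sialidase 1, cathepsin D and the d1 subunit of the V-ATPase.
CTSA, chr20:45891281-45891310, plus strand: gaggaagactgtCACGTGgcgccggagttc
CTSA, chr20:45891298-45891327, plus strand: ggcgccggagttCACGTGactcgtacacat
NEU1, chr6:31862930-31862959, minus strand: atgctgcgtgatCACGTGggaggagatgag
CTSD, chr11:1763957-1763986, minus strand: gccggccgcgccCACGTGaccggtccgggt
ATP6V0D1, chr16:67481199-67481228, minus strand: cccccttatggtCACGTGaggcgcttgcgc
GPNMB, whose level moved most, has no CACGTG in its window. A variant known as the M-box, TCATGTGA or its reverse complement TCACATGA, was searched after these windows had been read. It lay in 2 of 26 genes (7.69%), against 1.24% of all genes, and the sites of GPNMB and of GRN, the gene of progranulin, are printed with the 8 letters in capitals.
GPNMB, chr7:23246701-23246730, plus strand: gcttaataccaTCACATGAtcctccccgag
GRN, chr17:44345068-44345097, plus strand: ctgtcccgacgTCACATGAttctccaatca
GRN, chr17:44345084-44345113, plus strand: tgattctccaaTCACATGAtccctagaaat
The GLI motif TGGGTGGTC lay in 0 of the 26 genes and in 0.297% of all genes. A match is a string of letters and not a measured binding site, and no binding was measured here.

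Library totals ran from 83230948 to 109018776 counts, and mitochondrially encoded genes took 3.99% to 5.33% of them. No pair of replicates agreed within counting noise, with a chi-square per degree of freedom of 2.90 to 17.9. The third replicates of GLI2 KO in DMSO (13.7 and 17.9 against the other two) and in paclitaxel (11.7 and 7.17) and the second of WT in DMSO (11.4 and 8.44) stood furthest from their groups. Levels are given as CPM, counts relative to a library size scaled by TMM factors, with the SD of 3 replicates. A level of 3 counts in a library equals 0.0275 to 0.0360 CPM; such floors cover counting error only. GLI2 itself stood at 10.8 ± 0.536 CPM in WT and 9.20 ± 0.925 in GLI2 KO cells in DMSO, and at 5.68 ± 0.722 and 4.16 ± 0.211 in paclitaxel (SD, n = 3). It was lower in the knockout in both treatments (adjusted p = 0.0253 and 0.000243, edgeR's quasi-likelihood test) but its transcript was retained, and a frameshift can leave a transcript in place, so these levels do not by themselves check the labels.

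The 33 genes spanned more than 3 orders of magnitude per length of exon in WT DMSO cells. PSAP, the precursor of the saposins that help glycosidases reach their lipids, was highest at 142 CPM per kb, followed by SQSTM1 at 85.4, cathepsin Z (CTSZ) at 45.4, GRN at 32.96 and NPC2, a cholesterol carrier of the lysosome lumen, at 31.3. Of the MiT factors, MITF stood at 29.1 CPM per kb and TFE3 at 12.1, while TFEB stood at 0.194. The lowest 4 were GABARAPL1 at 1.96, GPNMB at 0.298, TFEB and cathepsin S (CTSS) at 0.0191 CPM per kb. The plot of levels per exon length gives all 33 in the 4 groups. The exon length is that of the union of GENCODE 29 exons, which may differ from the isoforms in these cells.

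**Figure D1:**
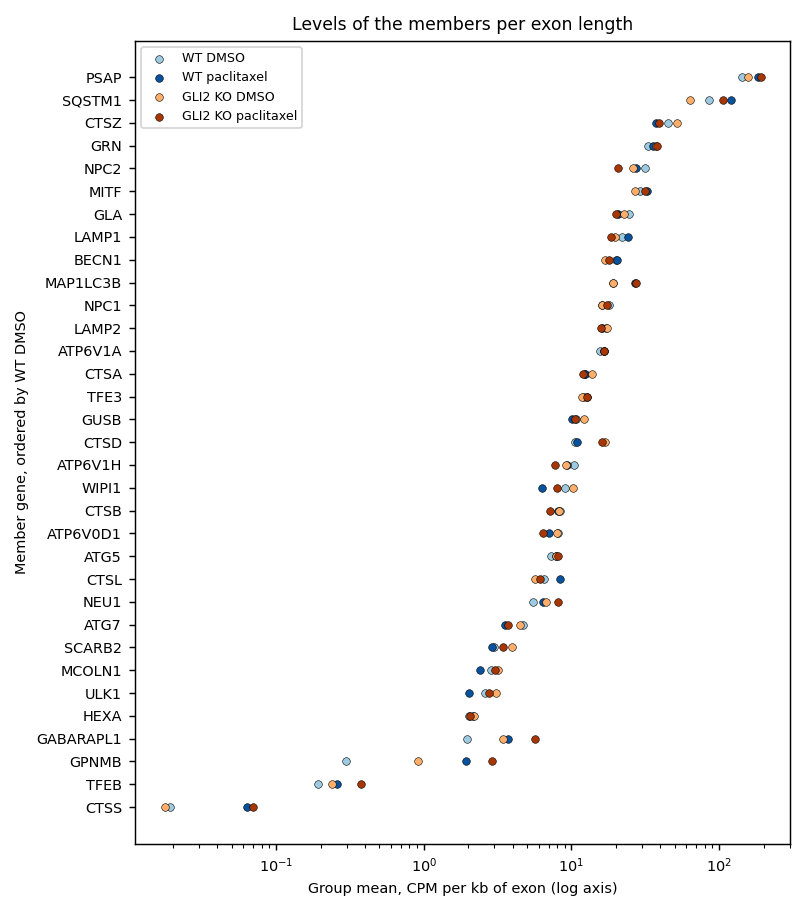
Mean level of each of the 33 genes in the 4 groups, in CPM per kb of exon on a log axis, ordered by WT DMSO from PSAP (142) to CTSS (0.0191). GPNMB spreads furthest, from 0.298 in WT DMSO to 2.91 in GLI2 KO paclitaxel.

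With paclitaxel the MiT factor genes, GPNMB, SQSTM1, both Atg8 genes, PSAP and NEU1 were higher in both genotypes, while WIPI1, ULK1, ATG7 and CTSZ were lower. In WT cells 15 genes were higher and 12 lower at an adjusted p below 0.05 (edgeR's quasi-likelihood test over 21974 genes), and 6 did not pass; of all genes, 34.6% were called higher and 32.1% lower. In GLI2 KO cells 12 were higher, 14 lower and 7 did not pass, against 33% and 32.2% of all genes. The members' shares, 15 and 12 of 33 and then 12 and 14 of 33, are near these backgrounds and are no result about the members as a list. The median log2 fold change of the 33 was 0.05 in WT cells and -0.05 in GLI2 KO cells, beside 0.03 and 0.02 over all genes. Those called higher in both genotypes were CTSS, TFEB, TFE3, MITF, NEU1, PSAP, GPNMB, SQSTM1, MAP1LC3B and GABARAPL1, which is 10 genes (30.3%). Those called lower in both were LAMP2, CTSZ, GLA, NPC2, GUSB, WIPI1, ULK1, ATG7, ATP6V0D1 and ATP6V1H, also 10 genes, and 26.7% of all genes were called higher in both and 26.7% lower in both. Across the 33 genes the effects in the 2 genotypes had a Pearson r of 0.93 and a Spearman rho of 0.87. Without GPNMB and CTSS the values were 0.87 and 0.85 over 31 genes; this describes genes within these libraries, which are not independent replicates, and has no test. The smaller falls depend on the scaling. With upper-quartile factors the median over all genes moved by 0.13 in WT and 0.12 in GLI2 KO cells, and with library totals by 0.16 and 0.18. The WT counts then became 20 higher and 5 lower, or 21 and 4, and the GLI2 KO counts 16 and 9, or 17 and 4. Over all genes the split of 7613 higher and 7047 lower in WT cells became 9905 and 4731, or 10352 and 4295, and that of 7250 and 7077 in GLI2 KO cells became 9324 and 4791, or 10398 and 3831. The falls that passed under all alternatives run were those of CTSZ and WIPI1 in both genotypes, ATG7 and ULK1 in WT cells, and NPC2 and ATP6V0D1 in GLI2 KO cells. Of the 10 genes called higher in both genotypes, the MiT factors were the less stable. TFEB and MITF passed under all alternatives in GLI2 KO cells alone, and TFE3 in neither genotype. The others passed in both genotypes under all alternatives in which they were tested.

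**Figure D2:**
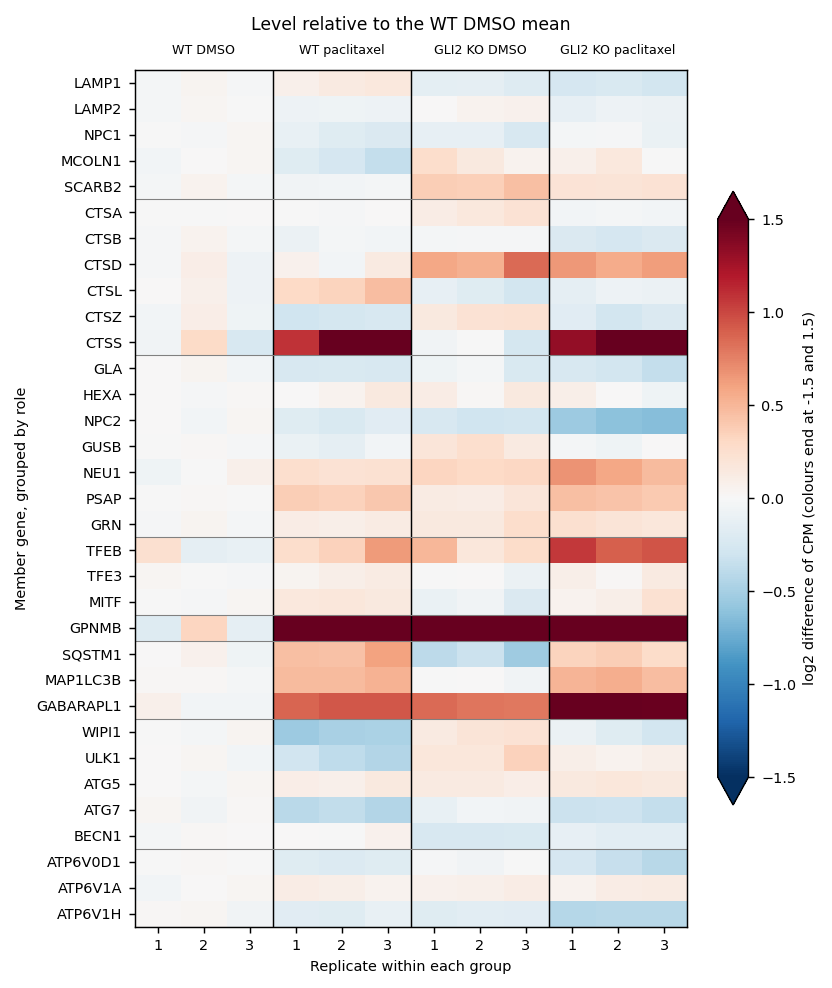
Colours give the log2 difference of each sample's CPM from the WT DMSO mean, for the 33 genes (rows, grouped by role) in the 12 samples (columns, replicates 1 to 3 of each group). GPNMB and GABARAPL1 are above the WT DMSO mean in the 9 samples of the other 3 groups, while CTSS is above it in the 6 paclitaxel samples.

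**Figure D3:**
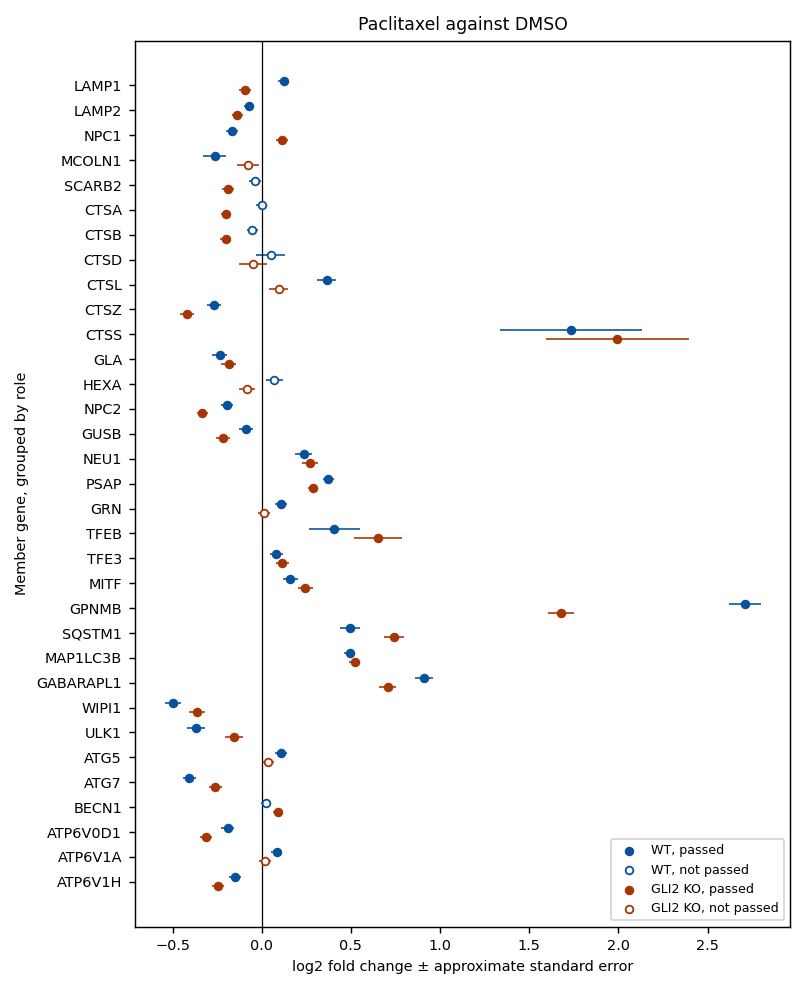
Log2 fold change of paclitaxel against DMSO in WT and GLI2 KO cells for the 33 genes, with bars of 1 approximate standard error. Filled points passed the test and open points did not. GPNMB (2.71 and 1.68) and CTSS (1.74 and 1.99) lie furthest right and WIPI1 (-0.50 and -0.37) furthest left in WT cells and CTSZ (-0.27 and -0.42) in GLI2 KO cells.

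GPNMB encodes a transmembrane glycoprotein of melanosomes and lysosomes that is a known target of the MiT factors, and its annotated span on GRCh38 is chr7:23235967-23275108. Its levels were 1.55, 2.22 and 1.61 CPM in WT DMSO, 11.5, 11.6 and 11.9 in WT paclitaxel, 5.65, 5.58 and 5.22 in GLI2 KO DMSO and 17.1, 18.6 and 17.0 in GLI2 KO paclitaxel. No 2 groups overlapped: WT DMSO was lowest, then GLI2 KO DMSO, WT paclitaxel and GLI2 KO paclitaxel. Paclitaxel raised GPNMB 6.54-fold in WT cells (log2 2.71 ± 0.09 approximate SE, adjusted p = 8.57e-18) and 3.20-fold in GLI2 KO cells (1.68 ± 0.07, adjusted p = 1.24e-15). The highest group mean was 9.76 times the lowest.

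CTSS encodes cathepsin S, a cysteine protease typical of antigen-presenting cells. Its levels were 0.0773, 0.0977 and 0.0678 CPM in WT DMSO and 0.169, 0.366 and 0.276 in WT paclitaxel, and 0.0769, 0.0794 and 0.0667 in GLI2 KO DMSO and 0.199, 0.280 and 0.408 in GLI2 KO paclitaxel. Each paclitaxel sample lay above each DMSO sample, but the 12 samples held only 6 to 45 counts each. The DMSO samples held 6 to 8 counts, under the minimum count of 10 set for the filter on low counts. CTSS therefore passed that filter only through the paclitaxel samples, where it was high, which limits what its p-values can show. The rise was 3.33-fold in WT cells (log2 1.74 ± 0.40, adjusted p = 0.000468) and 3.98-fold in GLI2 KO cells (1.99 ± 0.40, adjusted p = 0.00012). More genes were detected with paclitaxel throughout the series. Genes with any count numbered 23712 to 24125 in the DMSO libraries and 24923 to 24985 in the paclitaxel libraries. Whether the rises of CTSS and of the low markers below are particular to them was not tested.

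GPNMB and CTSS are abundant in macrophages, so macrophage markers were read beside them. Of 10 listed, 8 had a row. LAPTM5, which made up most of their summed level, was called lower with paclitaxel in both genotypes. It went from 107 to 98.3 CPM in WT cells and from 152 to 133 CPM in GLI2 KO cells (log2 -0.12 and -0.19). The full sum was 105 to 111 CPM in WT DMSO and 100 to 103 in WT paclitaxel. In GLI2 KO cells it was 144 to 171 CPM in DMSO and 135 to 140 in paclitaxel. Without LAPTM5 the sum went the other way, at 0.994 to 1.11 CPM in WT DMSO, 3.31 to 3.62 in WT paclitaxel, 1.54 to 1.80 in GLI2 KO DMSO and 3.83 to 4.92 in GLI2 KO paclitaxel. No marker was at 0 in a whole group, and PTPRC, the pan-leukocyte marker CD45, averaged 0.0478, 0.123, 0.271 and 0.691 CPM in the same order. Of 6 melanocyte markers listed, 2 had a row, PMEL and DCT, which are also MiT targets. These summed to 0.610 to 0.811 CPM in WT DMSO and 1.43 to 1.47 in WT paclitaxel, and to 0.711 to 0.731 and 1.19 to 1.28 in GLI2 KO cells. AIF1, TYROBP, TYR, MLANA, TYRP1 and SOX10 had no row in the count table and so were not analysed here. The part of any such cells in these values was not tested. The 5 mesenchymal markers of the line, led by vimentin (VIM), summed to 3360 to 5120 CPM. Of 3 breast cancer receptor markers listed, 2 had a row, while ESR1 had none and so was not analysed here. Of the 2, ERBB2 averaged 45.2 to 57.9 CPM. The other, PGR, divided by genotype. It had 170, 202 and 268 counts in GLI2 KO DMSO and 86, 78 and 79 in GLI2 KO paclitaxel, and 0 or 1 in each WT sample. Fewer cells of a kind and less RNA per cell cannot be told apart in bulk samples.

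All 3 MiT factors among the members passed as higher in both genotypes. TFEC, a relative of these factors that is not a member, was read beside them. It had 4, 4 and 5 counts in WT DMSO and 67, 60 and 68 in WT paclitaxel. In GLI2 KO cells TFEC had 3, 18 and 11 counts in DMSO and 137, 136 and 168 in paclitaxel. TFEB was lowly expressed, with 1.28, 0.990 and 1.01 CPM in WT DMSO and 1.30, 1.38 and 1.69 in WT paclitaxel. In GLI2 KO cells it had 1.54, 1.22 and 1.31 CPM in DMSO and 2.26, 2.03 and 2.09 in paclitaxel. The 2 WT groups were separated by a narrow gap between 1.28 and 1.30 CPM, whereas the GLI2 KO groups lay well apart. TFEB rose by a log2 of 0.41 ± 0.14 in WT cells (adjusted p = 0.0154) and 0.65 ± 0.13 in GLI2 KO cells (adjusted p = 0.000168). The WT rise did not pass without WT DMSO replicate 2, WT DMSO replicate 3 or WT paclitaxel replicate 3 (largest adjusted p = 0.12). MITF, the most abundant of the 3, rose from 209 ± 3.24 to 234 ± 1.88 CPM in WT cells and from 192 ± 11.5 to 227 ± 14.9 CPM in GLI2 KO cells (log2 0.16 and 0.24). The WT rise of MITF did not pass under every alternative. TFE3 changed least, by 0.08 and 0.11, and these calls were lost in 8 of 15 and 3 of 16 alternatives. Among them were leaving out any 1 WT DMSO replicate or WT paclitaxel replicate 2 or 3 for WT cells, and replicate 3 of either GLI2 KO group for GLI2 KO cells.

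The cargo receptor and both Atg8 genes also rose in both genotypes. SQSTM1, on chr5:179806398-179838078, binds ubiquitin and Atg8 proteins and is itself degraded by autophagy. Its levels were 653, 684 and 624 CPM in WT DMSO, 890, 885 and 989 in WT paclitaxel, 498, 521 and 450 in GLI2 KO DMSO and 822, 844 and 791 in GLI2 KO paclitaxel. The groups did not overlap, and the increase was 1.41-fold in WT cells (log2 0.50 ± 0.06, adjusted p = 2.07e-06) and 1.67-fold in GLI2 KO cells (0.74 ± 0.06, adjusted p = 2.76e-08). SQSTM1 shares 22% of its exon bases with other genes, and the largest overlap is with MRNIP on the opposite strand. MRNIP averaged 29.6 to 34.8 CPM and was lower with paclitaxel (-0.17 and -0.23), the opposite direction.

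MAP1LC3B encodes LC3B, the usual marker protein of autophagosomes. It had 103, 103 and 100.2 CPM in WT DMSO, 142, 142 and 147 in WT paclitaxel, 102, 103 and 98.4 in GLI2 KO DMSO and 146, 149 and 140.2 in GLI2 KO paclitaxel. The samples parted by treatment, and the genotypes overlapped within each treatment. The log2 rise was 0.49 ± 0.03 in WT and 0.52 ± 0.03 in GLI2 KO cells (adjusted p = 6.32e-13 and 2.15e-13). Its near-identical copy MAP1LC3B2 averaged 0.391 to 0.676 CPM, and the sources used here do not say how reads were assigned between the copies.

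GABARAPL1 encodes an Atg8 protein of the GABARAP branch. It had 8.48, 7.79 and 7.79 CPM in WT DMSO, 14.6, 15.4 and 15.3 in WT paclitaxel, 14.5, 14.0 and 13.9 in GLI2 KO DMSO and 23.2, 23.4 and 22.4 in GLI2 KO paclitaxel. Each shift of treatment or genotype moved the group clear of the one it was compared with. The paclitaxel rise was 1.88-fold in WT cells (log2 0.91 ± 0.05, adjusted p = 1.22e-13) and 1.63-fold in GLI2 KO cells (0.71 ± 0.05, adjusted p = 3.27e-12). GABARAPL3, its copy, had no row in the count table and so was not analysed here.

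Upstream of these, 3 of the 5 initiation and conjugation genes fell in both genotypes. WIPI1, which binds phosphatidylinositol 3-phosphate on the forming membrane, had 30.3, 29.9 and 31.4 CPM in WT DMSO and 20.9, 21.8 and 22.1 in WT paclitaxel. In GLI2 KO cells it had 33.6, 35.0 and 35.4 CPM in DMSO and 28.8, 26.9 and 25.1 in paclitaxel. Paclitaxel samples lay below DMSO samples in both genotypes, by a log2 of -0.50 ± 0.05 in WT cells (adjusted p = 7.08e-10) and -0.37 ± 0.04 in GLI2 KO cells (adjusted p = 1.13e-07). WIPI1 shares 28.1% of its exon bases with other genes. The largest overlap is with ARSG on the opposite strand, which averaged 2.15 to 2.34 CPM and did not pass. ULK1, the initiating kinase, changed by -0.37 and -0.16, and ATG7, the E1-like enzyme of conjugation, by -0.41 and -0.26. The ULK1 fall in GLI2 KO cells was lost in 5 of 16 alternatives, among them leaving out GLI2 KO DMSO replicate 3 and leaving out the third replicates of both GLI2 KO groups, and with library totals its sign turned (0.02). ATG5 passed in WT cells alone (0.11) and BECN1 in GLI2 KO cells alone (0.09), and neither difference between genotypes passed (adjusted p = 0.34 and 0.306).

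Among the lumenal enzymes and cofactors, directions were mixed. PSAP rose from 461 ± 4.12 to 598 ± 12.1 CPM in WT cells and from 507 ± 13.0 to 618 ± 11.04 in GLI2 KO cells, by a log2 of 0.37 and 0.29. NEU1, which removes sialic acids, rose by 0.23 and 0.27, and NEU1 carries CACGTG in its window. CTSZ, a carboxypeptidase, fell from 92.5 ± 6.04 to 76.7 ± 1.57 CPM and from 106 ± 3.34 to 79.2 ± 2.66 CPM (-0.27 and -0.42). GLA, the α-galactosidase lost in Fabry disease, changed by -0.24 and -0.19, NPC2 by -0.19 and -0.33, and GUSB, β-glucuronidase, by -0.09 and -0.22, where the GUSB sign in WT cells turned with upper-quartile factors (0.04) and with library totals (0.07). The WT call of GUSB was also lost without any 1 WT DMSO replicate and without WT paclitaxel replicate 1 or 2. GUSB has pseudogene copies, of which GUSBP9 averaged 0.771 to 1.19 CPM. Cathepsin L (CTSL) rose in WT cells (0.37) and stood at 13.5 ± 0.711 and 14.4 ± 0.273 CPM in GLI2 KO cells (0.09, adjusted p = 0.142). CTSA and CTSB, another cysteine cathepsin, did not pass in WT cells (0.00 and -0.05) and fell in GLI2 KO cells (both -0.20), although with library totals neither fall passed (-0.02 and -0.03). GRN rose in WT cells (0.11) with 0.01 in GLI2 KO cells. The aspartic protease cathepsin D (CTSD) and HEXA, the α-subunit of β-hexosaminidase, passed in neither genotype, with log2 values of 0.05 and -0.05 for CTSD and 0.07 and -0.08 for HEXA.

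The membrane proteins and pump subunits moved little. LAMP2 fell by 0.07 and 0.14 on the log2 scale, signs that turned with upper-quartile factors in WT cells (0.06) and with library totals in both genotypes (0.08 and 0.04). The WT call was also lost without WT DMSO replicate 2 or 3 and without any 1 WT paclitaxel replicate. MCOLN1 fell in WT cells by 0.26 and had -0.08 in GLI2 KO cells. SCARB2, the receptor that delivers β-glucocerebrosidase, fell by 0.19 in GLI2 KO cells and had -0.04 in WT cells. Of the V-ATPase subunits, ATP6V0D1 fell by 0.19 and 0.31 and ATP6V1H by 0.15 and 0.25, the latter with 0.00 in WT cells under library totals. ATP6V1A rose in WT cells by 0.08 and had 0.02 in GLI2 KO cells. The WT call of ATP6V1A was lost without WT DMSO replicate 1, WT paclitaxel replicate 1 or WT paclitaxel replicate 2.

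The 6 genes with CACGTG in their windows were divided by paclitaxel. In WT cells 2 were higher and 2 lower of the 6 (median 0.02), against 10 and 8 of the 20 genes with a window but no such letters (median 0.05). In GLI2 KO cells 1 was higher and 3 lower (median -0.09), against 9 and 8 of 20 (median 0.06). The genes that moved furthest, GPNMB and GABARAPL1, were among the 20, and CTSS had no window.

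The other genes of the pathway were counted from lists with no member in common with the 33. Beside these counts, of all genes 34.6% were called higher and 32.1% lower in WT cells and 33% and 32.2% in GLI2 KO cells, and no list was tested against other genes. Of 36 other hydrolases, 2 were higher and 19 lower in WT cells and 3 and 20 in GLI2 KO cells. Of 28 other membrane and sorting proteins, 4 were higher and 15 lower, and 3 and 16. HGSNAT, the acetyltransferase of heparan sulfate breakdown, fell from 41.5 to 21.3 CPM in WT cells and from 38.6 to 19.5 CPM in GLI2 KO cells (-0.97 and -0.99). With library totals the hydrolases gave 13 higher and 11 lower in WT cells and 12 and 11 in GLI2 KO cells, and the membrane and sorting proteins 10 and 11, and 11 and 9, so these counts depend on the scaling. Of 20 other V-ATPase subunits, 8 were higher and 7 lower in WT cells and 6 and 9 in GLI2 KO cells, and TCIRG1, the a3 subunit of osteoclasts, fell by 0.77 and 0.55. Of 30 other autophagy genes, 11 were higher and 14 lower, and 9 and 13; RB1CC1, the FIP200 scaffold of the ULK1 complex, rose by 0.44 and 0.47, and STX17, the syntaxin of autophagosome fusion, fell by 0.59 and 0.35. Of 11 other cargo receptors, 5 were higher and 4 lower, and 4 and 5. BNIP3L, a mitophagy receptor, fell by 0.36 and 0.48, and NBR1 rose by 0.24 in GLI2 KO cells. Of 21 regulators of mTORC1 and the MiT factors, 7 were higher and 10 lower, and 7 and 11; MLST8, a subunit of mTORC1, fell by 0.38 and 0.37.

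Loss of GLI2 by label was accompanied by higher GPNMB, GABARAPL1 and CTSD and lower SQSTM1 and LAMP1 in DMSO. There 14 genes were higher, 8 lower and 11 did not pass, against 22% and 19.6% of all genes called higher and lower. In paclitaxel 11 were higher, 8 lower and 14 did not pass, against 23.4% and 22.2%. These counts describe the list, and no test was made of the list against other genes. The median log2 difference over the 33 was 0.08 in DMSO and 0.05 in paclitaxel, beside 0.01 and -0.01 over all genes. Those higher in both treatments were CTSD, NEU1, SCARB2, GRN, GPNMB, GABARAPL1, WIPI1 and ULK1, which is 8 genes (24.2%), beside 15.3% of all genes. Those lower in both were LAMP1, CTSL, NPC2, SQSTM1, BECN1 and ATP6V1H, which is 6 genes (18.2%), beside 13.2% of all genes. NPC1, the cholesterol exporter of the lysosomal membrane, was lower in DMSO (-0.16) and higher in paclitaxel (0.12).

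**Figure D4:**
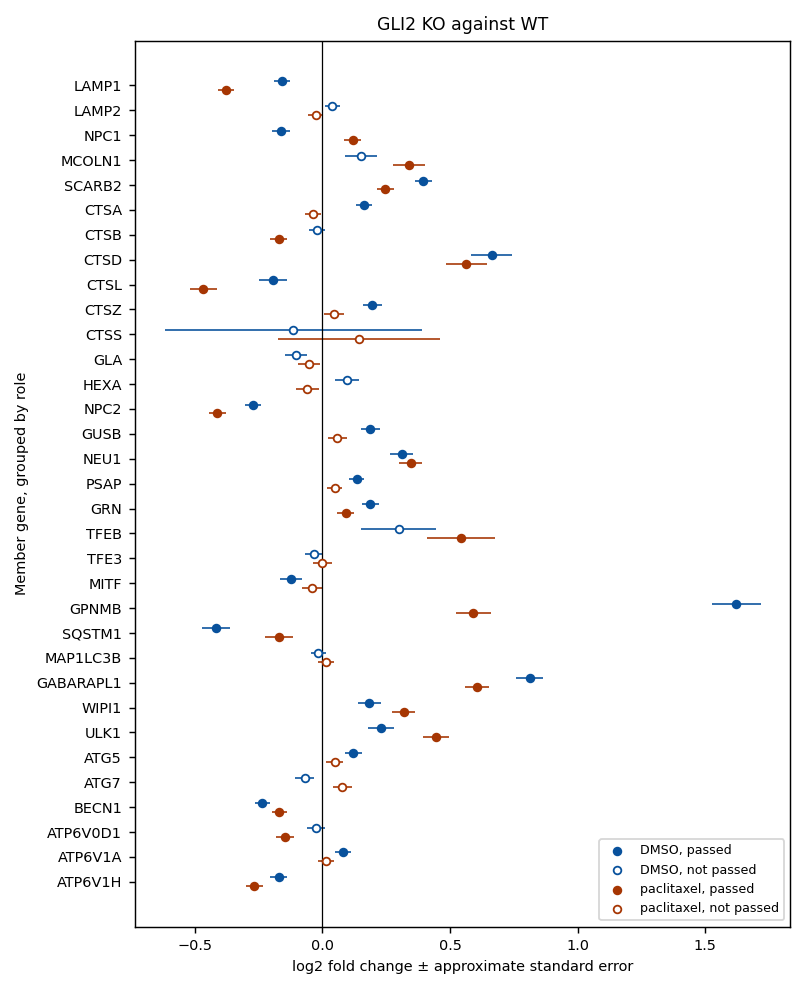
Log2 difference of GLI2 KO against WT cells in DMSO and in paclitaxel for the 33 genes, with bars of 1 approximate standard error; filled points passed the test. GPNMB (1.62 and 0.59), GABARAPL1 (0.81 and 0.61) and CTSD (0.66 and 0.56) lie to the right in both treatments, and LAMP1 (-0.16 and -0.38), NPC2 (-0.27 and -0.41) and CTSL (-0.19 and -0.47) to the left.

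GPNMB was 3.08-fold higher in GLI2 KO than in WT cells in DMSO (log2 1.62 ± 0.10, adjusted p = 3.43e-13) and 1.51-fold higher in paclitaxel (0.59 ± 0.07, adjusted p = 9.59e-08). GABARAPL1 was 1.75-fold and 1.52-fold higher (0.81 ± 0.05 and 0.61 ± 0.05, adjusted p = 1.83e-12 and 8.86e-11), so that its level in GLI2 KO cells in DMSO, 14.1 CPM, lay near that of WT cells in paclitaxel, 15.1 CPM. Osteoclast markers, another program in which MiT factors act, were read beside them: 4 of 6 had a row and summed to 0.623 to 0.763 CPM in WT DMSO, 1.06 to 1.41 in WT paclitaxel, 9.05 to 9.62 in GLI2 KO DMSO and 8.98 to 10.5 in GLI2 KO paclitaxel. Most of this was SIGLEC15 (8.64 and 8.56 CPM in the GLI2 KO groups), and ACP5 and CALCR averaged at most 0.853 and 0.343 CPM. OCSTAMP and DCSTAMP had no row in the count table and so were not analysed here. The part of such cells in the genotype differences was not tested.

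CTSD, on chr11:1752752-1764573, had 32.8, 35.3 and 31.3 CPM in WT DMSO and 49.5, 47.9 and 59.8 in GLI2 KO DMSO. In paclitaxel it had 34.5, 32.1 and 36.2 CPM in WT cells and 52.1, 48.7 and 51.2 in GLI2 KO cells. Every GLI2 KO sample lay above every WT sample, and treatment made no such division. The difference was 1.58-fold in DMSO (log2 0.66 ± 0.08, adjusted p = 4.49e-05) and 1.48-fold in paclitaxel (0.56 ± 0.08, adjusted p = 0.000145), and passed in all 15 alternatives of each contrast. CTSD shares 52.7% of its exon bases with other genes, and the largest overlap is with a gene listed as ENSG00000250644 on the same strand. That gene averaged 0.460 to 1.29 CPM and was higher in GLI2 KO cells too (0.67 and 0.46), so the counts of the pair may be exchanged, though its level is far below that of CTSD.

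Of the autophagy genes, SQSTM1 was lower in GLI2 KO cells in DMSO (-0.42 ± 0.06, adjusted p = 2.47e-05) and in paclitaxel (-0.17 ± 0.06, adjusted p = 0.022). The paclitaxel call was lost without GLI2 KO paclitaxel replicate 1 or 3, without WT paclitaxel replicate 3, and without the third replicates of both GLI2 KO groups. MAP1LC3B did not pass in either treatment (-0.02 and 0.01). ULK1 was higher by 0.23 and 0.44 and WIPI1 by 0.18 and 0.32, while BECN1 was lower by 0.24 and 0.17. TFEB was higher in paclitaxel (0.54 ± 0.13, adjusted p = 0.00142) with 0.30 ± 0.15 in DMSO (adjusted p = 0.109). TFE3 passed in neither treatment, and MITF was lower in DMSO (-0.12), a call lost without GLI2 KO DMSO replicate 3, WT DMSO replicate 1 or WT DMSO replicate 3.

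Of the lysosomal members, SCARB2 was higher by 0.39 and 0.25 and NEU1 by 0.31 and 0.35. GRN was higher by 0.19 and 0.09, but the GRN difference in paclitaxel was lost in 6 of 15 alternatives, among them leaving out replicate 1 or 2 of either paclitaxel group. CTSA, CTSZ, GUSB and PSAP were higher in DMSO (0.16, 0.20, 0.19 and 0.14) and did not pass in paclitaxel. MCOLN1 was higher (0.34) and CTSB and ATP6V0D1 lower (-0.17 and -0.15) in paclitaxel, and none of these passed in DMSO. ATP6V1H was lower by 0.17 and 0.27. ATG5 was higher in DMSO by 0.12, as was ATP6V1A by 0.08, a call that held in 5 of 15 alternatives and was lost without GLI2 KO DMSO replicate 3 or WT DMSO replicate 1 or 2. LAMP2, GLA, HEXA, ATG7 and CTSS passed in neither treatment.

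Some genotype differences ran with the surrounding chromosome. For each gene the median log2 difference of the nearest 25 tested genes on either side was taken, with fewer at a chromosome end. Around LAMP1, on chr13:113297241-113323672, the 43 neighbours had a median of -0.26 in DMSO and -0.23 in paclitaxel, and 81.4% and 88.4% of them shared its sign. LAMP1 itself was at -0.16 and -0.38. Around NPC2 the 50 neighbours had medians of -0.17 and -0.12, beside -0.27 and -0.41 for NPC2. Around GPNMB the medians were 0.15 and 0.09, around SCARB2 0.14 and 0.04, around GABARAPL1 0.05 and 0.05, and around CTSD -0.06 and -0.03, far from the values of GPNMB, GABARAPL1 and CTSD themselves. Copy number was not measured, and its part was not tested.

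For the other genes of the pathway, the shares of all genes called higher and lower were 22% and 19.6% in DMSO and 23.4% and 22.2% in paclitaxel, and no list was tested against other genes. In DMSO 18 of 36 hydrolases were higher in GLI2 KO cells and 5 lower, and in paclitaxel 11 and 6; with upper-quartile factors these became 18 and 8, and 9 and 8. FUCA1, α-L-fucosidase, was higher by 0.82 and 0.69 and GAA, acid α-glucosidase, lower by 0.63 and 0.64. Of 28 membrane and sorting proteins 11 were higher and 6 lower in DMSO and 12 and 9 in paclitaxel, with LAPTM4B higher by 0.78 and 0.63 and SIDT2 by 0.74 and 0.75; with upper-quartile factors the counts became 9 and 8, and 12 and 11. Of 20 V-ATPase subunits 8 were higher and 7 lower, and 6 and 8; ATP6V0B was higher by 0.62 and 0.29. Of 30 autophagy genes 7 were higher and 7 lower, and 11 and 6 (with upper-quartile factors 6 and 10, and 8 and 8), and ATG14, a subunit of the BECN1 complex, was lower by 0.58 and 0.61. Of 11 cargo receptors 5 were higher and 2 lower in both treatments, OPTN by 0.35 and 0.30. Of 21 regulators 9 were higher and 2 lower, and 11 and 4, and MTOR, the kinase of mTORC1, was higher by 0.89 and 0.79. The 50 neighbours of MTOR had medians of 0.83 and 0.88, so MTOR moved with its chromosome region.

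The response to paclitaxel differed between genotypes for 8 of the 33 genes. The difference of effects was positive for 1 gene and negative for 7, and 25 did not pass, against 6.56% and 6.93% of all genes. GPNMB had the largest, -1.03 ± 0.12 (adjusted p = 3.19e-06), and the same value is the change of its genotype difference from 1.62 in DMSO to 0.59 in paclitaxel. LAMP1 and NPC1 were called in opposite directions in the 2 genotypes.

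LAMP1 had 124.5, 131 and 126 CPM in WT DMSO, 133, 139 and 142 in WT paclitaxel, 115, 116 and 111 in GLI2 KO DMSO and 107, 108 and 105.1 in GLI2 KO paclitaxel. The paclitaxel samples lay above the DMSO samples in WT cells and below them in GLI2 KO cells, by a log2 of 0.12 ± 0.03 and -0.09 ± 0.03. The fall in GLI2 KO cells turned to 0.03 with upper-quartile factors and 0.08 with library totals, but the difference of effects, -0.22 ± 0.04 (adjusted p = 0.00181), passed in all 21 alternatives run for it.

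NPC1 had 181, 179 and 185 CPM in WT DMSO, 168, 160 and 156 in WT paclitaxel, 166, 167 and 154 in GLI2 KO DMSO and 178, 179 and 170 in GLI2 KO paclitaxel. The separation was complete in both genotypes, downward in WT cells (-0.17 ± 0.03) and upward in GLI2 KO cells (0.11 ± 0.03). The WT fall did not pass with upper-quartile factors or library totals, and the GLI2 KO rise did not pass without GLI2 KO DMSO replicate 3. The difference, 0.28 ± 0.05 (adjusted p = 0.000453), passed in all 21 alternatives.

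The other 5 differences were CTSL -0.27 ± 0.08, CTSA -0.20 ± 0.04, CTSB -0.15 ± 0.05, SCARB2 -0.15 ± 0.05 and NPC2 -0.14 ± 0.05 (adjusted p = 0.0204, 0.00278, 0.0304, 0.0389 and 0.0464). That of CTSA passed in all 21 alternatives, CTSL in 18, CTSB in 14, SCARB2 in 9 and NPC2 in 8. CTSA shares 28.5% of its exon bases with other genes, and the largest overlap is with NEURL2 on the opposite strand. NEURL2 had 52 to 142 counts per sample, against 5852 to 7704 for CTSA. The CTSL call was lost without GLI2 KO DMSO replicate 1, WT DMSO replicate 3 or WT paclitaxel replicate 3, and that of CTSB without any 1 of 6 samples, WT DMSO replicates 1 and 3 among them. The SCARB2 and NPC2 calls were lost without any 1 of 8 samples each. ULK1, SQSTM1 and GABARAPL1 lay just outside the threshold (0.21 ± 0.07, 0.25 ± 0.08 and -0.21 ± 0.07, adjusted p = 0.0503, 0.0528 and 0.0541). For MAP1LC3B the difference was 0.03 ± 0.04 and for TFEB 0.24 ± 0.20 (adjusted p = 0.729 and 0.477).

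**Figure D5:**
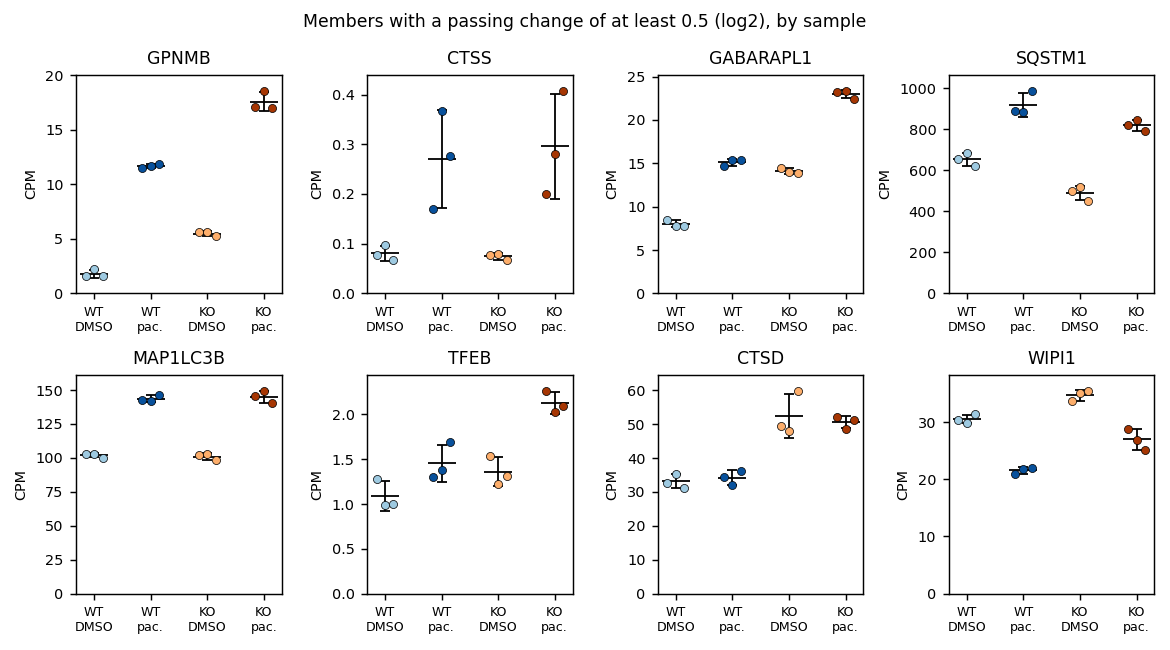
CPM in each of the 12 samples (points) with group mean and SD (bars, n = 3) for the 8 genes with a passing change of at least 0.5 on the log2 scale; each axis starts at 0, and "pac." is paclitaxel. MAP1LC3B divides by treatment (98.4 to 103 CPM against 140.2 to 149), CTSD by genotype (31.3 to 36.2 against 47.9 to 59.8), and GPNMB and GABARAPL1 by both.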

How the data were processed

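Polyadenylated RNA was sequenced from 12 samples, grouped by their titles. The deposited table holds whole-number counts per gene as made by the authors; Trim Galore 0.6.7, DESeq2 1.36.0, STAR and hg38 appear, without roles, in the submitters' processing notes. The sources used here do not give the counting tool, the annotation or any strand setting, so overlapping and antisense genes may share counts. Besides CTSD, CTSA, WIPI1 and SQSTM1, the members with the largest shares of exon bases in common with other genes were ATG7 (18.1%), BECN1 (17.1%) and HEXA (16.3%). The table of normalized values was not used, and 0 columns of other samples were present.

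The counts were tested with edgeR 4.0.16 (R 4.3.3; quasi-likelihood F test, robust, TMM factors, a mean per group, 8 residual degrees of freedom). The filterByExpr step, with a minimum count of 10, left 21974 of 25049 genes (87.7%). P-values are two-sided, adjusted by Benjamini-Hochberg over those genes within each of 5 contrasts, with a threshold of 0.05. Standard errors are approximate (the size of the log2 change divided by the root of F). An exact permutation test of 3 against 3 cannot go below 0.1. The comparisons of GLI2 KO with WT and of paclitaxel with DMSO share samples. The labels do not state whether replicates were separate cultures. The p-values rest on the spread between these libraries alone, and that spread may be technical. The test was checked on simulated counts.

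The alternatives changed the scaling (RLE factors, upper-quartile factors, library totals), the filter (none, or a minimum count of 50), the tool (DESeq2 1.42.0 or limma-voom 3.58.1) or the samples (only the 2 groups compared, or libraries left out). A block of consecutive library numbers was added after the data were seen. The members and lists were chosen with earlier results of these data known. Named were all 33 members, with values in every sample for those that passed with a log2 change of at least 0.5, up to 3 passing genes per other list, and GLI2. The sample values of LAMP1 and NPC1, the counts of PGR and TFEC, and the neighbouring genes of the members and MTOR were added after the values had been seen. Genes were placed with GENCODE 29 on GRCh38.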

Additional observations from a re-analysis of the deposited data

Results flagged for a closer look

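The effect of paclitaxel differed between GLI2 KO and WT cells, by the test of the difference itself (edgeR's quasi-likelihood test, adjusted p below 0.05), for 8 of the 33 genes. On the log2 scale, GLI2 KO minus WT, the differences were -1.03 for GPNMB, -0.27 for CTSL, -0.22 for LAMP1, -0.20 for CTSA, -0.15 for CTSB, -0.15 for SCARB2, -0.14 for NPC2 and 0.28 for NPC1. Of these, GPNMB rose in both genotypes, NPC2 fell in both, and LAMP1 and NPC1 had opposite calls.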

How the results depend on the processing

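The titles give no shared replicate numbers, but their library numbers can be taken in consecutive pairs, each with 1 DMSO and 1 paclitaxel library of a genotype. The labels do not say that these are pairs. Deviations from the group means correlated at -0.028 to 0.068 within the 6 pairs (over 21974 genes), and each library correlated best with its own pair in GLI2 KO but not in WT cells. With that replicate block, added after the data were seen, members higher and lower with paclitaxel numbered 14 and 12 in WT cells, where MITF was lost (adjusted p = 0.0505), and 12 and 14 in GLI2 KO cells. For the difference of effects they numbered 4 and 9; ATG7, CTSZ, GABARAPL1, SQSTM1 and ULK1 newly passed. Over the single members, 2496 of 2699 values under alternatives stayed on their side of the threshold, and 40 of these, none of them called, turned sign. A further 117 no longer passed, 70 newly passed with the same sign and 16 turned sign where the member was called in either setting. Members called lower with paclitaxel numbered 12 in WT cells, and 5 with upper-quartile factors and 4 with library totals. In GLI2 KO cells they numbered 14, and 9 and 4 under the same settings. Those 16 were in WT cells, with upper-quartile factors and library totals, LAMP2 (0.0612 and 0.0847), CTSA (0.1325 and 0.1558, and 0.0676 with a minimum count of 50), CTSB (0.0793 and 0.1028), GUSB (0.0436 and 0.0669) and SCARB2 (0.0925 and 0.116), and ATP6V1H with library totals (0.0037). In GLI2 KO cells they were LAMP1 (0.0284 and 0.0829), and with library totals LAMP2 (0.0401) and ULK1 (0.0197). These settings move all genes together, by their construction. Members with a higher difference of effects numbered 1, and 4 with RLE factors, library totals, DESeq2 or without the third replicates of both GLI2 KO groups, and 2 with a minimum count of 50 or limma-voom. Those with a lower one numbered 7, and 4 with library totals. The cause was not tested.

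Leaving out 1 replicate at a time gave, for members higher and lower, 13 to 14 and 10 to 11 with paclitaxel in WT cells and 10 to 12 and 13 to 15 in GLI2 KO cells. It gave 13 to 15 and 7 to 9 for GLI2 KO against WT in DMSO, 10 to 11 and 7 to 8 in paclitaxel, and 1 to 2 and 3 to 8 for the difference of effects. The lower count for that difference was 4 without GLI2 KO paclitaxel replicate 2 and 3 without WT DMSO replicate 3 or WT paclitaxel replicate 3. CTSS, at 6 to 45 counts per library, and TFEB, near 1 CPM, are the members whose depth limits precision most.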
